A study of Caenorhabditis elegans with 11 samples.

Results

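The chaperonin CCT is the folding machine of the eukaryotic cytosol, and its subunit genes were followed here through the adult life of C. elegans kept on 2-deoxy-D-glucose (DOG), a glucose analogue that cells take up and phosphorylate but cannot break down further. The genes described are cct-1, cct-2, cct-4, cct-5, cct-6, cct-7 and cct-8, taken by name from the deposited table: 7 genes of 45461 rows, all 7 of which were among the 14773 genes that entered the tests, having 100 or more counts in the libraries together. The remaining subunit of the ring, cct-3 (sequence name F54A3.3), is also in the deposited table but was not among the 7 genes, and is given beside them. RNA came from whole adults of the wild-type strain N2 (var. Bristol) at 1, 5 and 10 days after the L4 larval stage, with 3 libraries at each age, and at 20 days, with 2 libraries. All 11 libraries were from worms on agar with 5 mM DOG, so a change reported below is a change with age under DOG, and what DOG itself did cannot be told apart from age. Control worms were not analysed here. Each library was made from many pooled worms, fewer at the oldest age, and offspring had been removed by letting the adults settle. The question was whether the subunits of one complex keep the same profile over the 4 ages.

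CCT consists of a pair of stacked rings, each built from one copy of every subunit in a fixed order. Newly made actin and tubulin enter its cavity, handed over in part by the co-chaperone prefoldin, and are released folded after a cycle of ATP binding and hydrolysis. In yeast and mammals the subunits around a ring follow the order cct-2, cct-4, cct-1, cct-3, cct-6, cct-8, cct-7 and cct-5, named here by their worm orthologues, and they differ in how tightly they bind ATP. In C. elegans the complex is needed for microtubule function and embryonic development, and overexpression of cct-8 in somatic tissue is known to lengthen life. The genes cct-1, cct-2, cct-3 and cct-4 are on chromosome II, cct-5 and cct-6 on chromosome III, cct-8 on chromosome IV and cct-7 on chromosome V.

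The libraries held 23648292 to 58499127 counts on genes, and depth differed with age. It was 23648292 (replicate 1) to 40277713 at 1 day, 27679131 to 32169460 at 5 days and 39151996 to 53593523 at 10 days. The 20-day pair held 53042713 and 58499127. A single member had between 5313 and 38519 counts in a library, for which counting error alone is 1.37% and 0.51%. Replicates of one age differed by more than counting error, with a chi-square of 4.81 to 19 per degree of freedom in the 10 replicate pairs, and no pair was treated as one library. The spread of a member between replicates, as a coefficient of variation of its scaled level, lay between 0.4% and 9.0%, and the highest value was that of cct-6 at 1 day.

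Taken as a whole, CCT transcripts were lowest at 5 days. The summed level of the 7 members, in CPM (counts scaled to one common library total) after TMM scaling, was 2533 to 2813 at 1 day, 2257 to 2387 at 5 days, 2739 to 2860 at 10 days and 2909 to 2939 at 20 days. The ranges of 1 and 10 days overlapped, and those of the other ages lay apart. In RNA of whole worms fewer cells of a tissue and less RNA per cell cannot be told apart. The single subunits did not follow this sum alike, as the plot of levels by library shows.

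**Figure D1:**
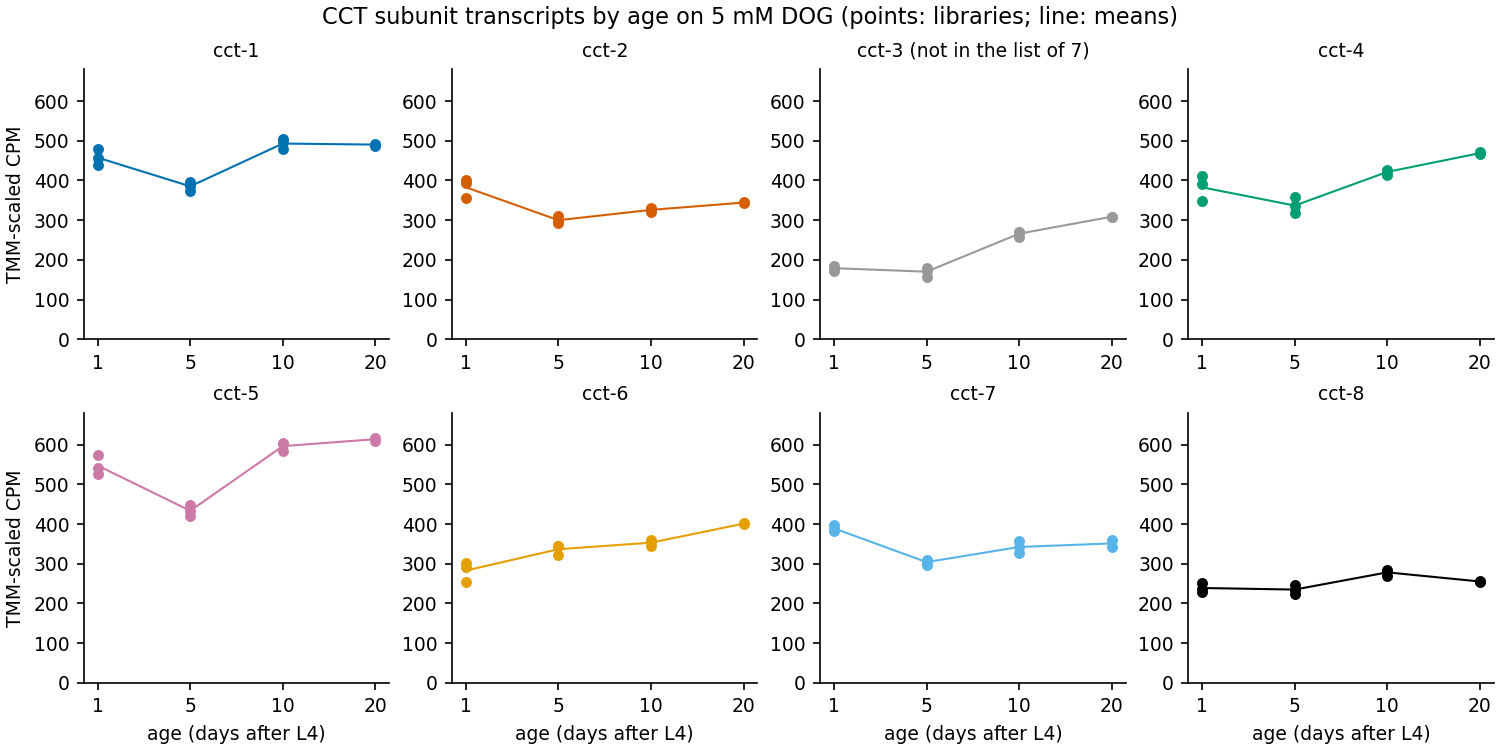
Level of each CCT subunit gene (vertical axes, CPM after TMM scaling) against age in days after L4 (horizontal axes, ages evenly spaced). Points are libraries, 3 at each of 1, 5 and 10 days and 2 at 20 days, and lines join the means. cct-1, cct-4 and cct-5 are lowest at 5 days and higher again at 10 days, cct-2 and cct-7 are highest at 1 day, and cct-6 is lowest at 1 day, with 20-day libraries at 399.7 and 402.1 CPM.

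cct-2 encodes the beta subunit, which in mammals has also been described as a receptor for the autophagy of protein aggregates. Its level was 355.1, 399.9 and 393.4 CPM at 1 day, 309.7, 298.0 and 291.9 CPM at 5 days, 329.6, 326.3 and 321.6 CPM at 10 days, with 342.7 and 345.8 CPM in the 20-day pair. The 1-day libraries were above all others, and no 2 ages overlapped. From 1 to 5 days it fell by 0.35 on the log2 scale (SE 0.04, edgeR adjusted p = 3.7e-07).

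cct-4 encodes the delta subunit, whose human orthologue can form rings of its own in vitro. It was measured at 347.8, 410.2 and 389.8 CPM at 1 day, 357.3, 335.6 and 317.0 CPM at 5 days, 423.2, 426.6 and 414.6 CPM at 10 days, with 470.5 and 467.0 CPM in the 20-day pair. The libraries of 1 and 5 days overlapped, and those of 10 and 20 days lay above both. Its fall from 1 to 5 days was 0.19 in log2 (that is, a change of -0.19, SE 0.05, edgeR adjusted p = 0.00326), and its rise from 5 to 10 days was 0.32 (SE 0.05, edgeR adjusted p = 2.4e-05). The first of these was lost when any of 4 libraries was left out: 1-day replicate 2 (edgeR adjusted p = 0.0311), 1-day replicate 3 (0.0147), 5-day replicate 2 (0.0127) or 5-day replicate 3 (0.0231).

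cct-1 encodes the alpha subunit, the orthologue of human TCP1, from which the TRiC name of the complex derives. The libraries gave 438.4, 478.6 and 455.4 CPM at 1 day, 385.5, 395.6 and 374.4 CPM at 5 days, 496.6, 503.2 and 478.8 CPM at 10 days, with 487.9 and 492.5 CPM in the 20-day pair. Levels at 5 days were below those of every other age, and those of 10 and 20 days overlapped. The log2 changes were -0.25 from 1 to 5 days (SE 0.04, edgeR adjusted p = 1.3e-05) and 0.36 from 5 to 10 days (SE 0.04, edgeR adjusted p = 2.8e-07). In the WBcel235 annotation its exons overlap those of T05C12.8 on the opposite strand, and whether the counting used strand is not stated, so some reads of that stretch may have been left out or shared.

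cct-6 encodes the zeta subunit, which in mammals has a testis-specific paralogue. It had 254.0, 302.2 and 291.9 CPM at 1 day, 343.6, 345.2 and 320.8 CPM at 5 days, 354.0, 360.9 and 344.0 CPM at 10 days, with 399.7 and 402.1 CPM in the 20-day pair. It was the one member whose 1-day libraries lay below all others and whose level was higher at 5 days than at 1 day (log2 change 0.25, SE 0.05, edgeR adjusted p = 2.1e-04). The gain from 10 to 20 days was smaller (0.18, SE 0.06, edgeR adjusted p = 0.00735) and was no longer called when any of 6 libraries was left out: 5-day replicate 2, or any library of 10 or 20 days, with edgeR adjusted p between 0.0103 and 0.0406.

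cct-8 encodes the theta subunit. Its level was 227.8, 251.8 and 236.9 CPM at 1 day, 246.8, 233.3 and 224.6 CPM at 5 days, 281.1, 284.2 and 269.4 CPM at 10 days, with 256.3 and 254.2 CPM in the 20-day pair. The libraries of 1 and 5 days overlapped, and those of 10 days were the highest. It did not pass the test from 1 to 5 days (log2 change -0.02, SE 0.04, edgeR adjusted p = 0.603), against 0.24 from 5 to 10 days (SE 0.04, edgeR adjusted p = 6.0e-05).

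cct-7 encodes the eta subunit. It was at 383.3, 396.7 and 387.2 CPM at 1 day, 296.7, 306.3 and 309.0 CPM at 5 days, 342.6, 356.1 and 327.7 CPM at 10 days, with 342.6 and 359.7 CPM in the 20-day pair. All 1-day libraries were above the rest and all 5-day libraries below. The log2 change from 1 to 5 days was -0.36 (SE 0.04, edgeR adjusted p = 9.2e-08), and the one from 5 to 10 days was 0.17 (SE 0.04, edgeR adjusted p = 8.2e-04), which without 10-day replicate 2 became 0.14 (edgeR adjusted p = 0.0103). Its exons overlap those of zig-11 on the opposite strand, with the same limit as for cct-1.

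cct-5 encodes the epsilon subunit, which neighbours eta in the ring and whose human orthologue also forms homomeric rings in vitro. Its libraries held 526.2, 573.6 and 541.7 CPM at 1 day, 447.9, 432.6 and 419.7 CPM at 5 days, 603.0, 602.3 and 583.1 CPM at 10 days, with 609.6 and 617.7 CPM in the 20-day pair. No 2 ages overlapped. Its rise from 5 to 10 days was the largest of the 7: a log2 change of -0.34 from 1 to 5 days (SE 0.04, edgeR adjusted p = 3.0e-07) was followed by one of 0.46 (SE 0.04, edgeR adjusted p = 1.0e-08).

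Over the first interval, from 1 to 5 days, 5 of the 7 members fell (cct-1, cct-2, cct-4, cct-5 and cct-7), 1 rose (cct-6) and cct-8 did not pass the test at an adjusted p under 0.01. The members' median log2 change was -0.25, and their values ran from -0.36 to 0.25. Over all genes tested the median was -0.01, with 34.0% of genes called lower and 34.5% called higher, so calls in either direction were common at this depth. When only genes with at least 100 counts in every library were fitted, which also changes the TMM factors, cct-6 was not called (0.12, edgeR adjusted p = 0.0456) and cct-8 was called lower (-0.16, edgeR adjusted p = 0.00209). With library size alone cct-4 was not called (-0.14, edgeR adjusted p = 0.0105), which left 4 members lower. Tissue markers, given in CPM without TMM scaling, shifted over the same interval. The summed CPM of 22 germline and oocyte markers lay between 15600 and 15900 at 1 day and between 22400 and 23000 at 5 days, and 19 of the 22 rose, with mean levels of 1020 and 1440 CPM for rme-2, the yolk receptor of oocytes. The sum of the 9 body wall muscle markers was between 4620 and 4980 CPM at 1 day and between 1070 and 1200 CPM at 5 days, with the myosin gene unc-54 at 1800 and 442 CPM, while hlh-1 of that list was listed at 0 in every library. The part of these shifts in the CCT changes was not tested.

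From 5 to 10 days most members rose again. Of the 7 members 5 rose (cct-1, cct-4, cct-5, cct-7 and cct-8) and 0 fell, with a median log2 change of 0.24 and a range of 0.07 to 0.46. Over all genes 23.7% were called higher and 24.6% lower, around a median of 0.00. The values that missed the threshold were those of cct-2 (0.12, SE 0.04, edgeR adjusted p = 0.02), which passed it under 5 alternative settings and without 1-day replicate 1 or 5-day replicate 1, and cct-6 (0.07, SE 0.05, edgeR adjusted p = 0.261). Over this interval 13 of the 22 germline and oocyte markers fell and 1 rose, and their summed CPM without TMM scaling was between 19000 and 19300 at 10 days.

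Between 10 and 20 days 1 member passed the test. The members' median log2 change was 0.04, from -0.12 for cct-8 to 0.18 for cct-6, and the call was the rise of cct-6, against 28.3% of all genes called higher and 28.2% called lower. These calls hung on the scaling. With library size alone 5 members were called higher, while the median of all genes moved to 0.11. With DESeq2 size factors 0 were called higher and cct-8 was called lower (-0.16, edgeR adjusted p = 0.00691). cct-4, at 0.15 (SE 0.06, edgeR adjusted p = 0.0236), was called higher in a fit to these 2 ages alone, without a filter, with at least 100 counts required in every library, with library size alone, or without 1-day replicate 1.

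**Figure D2:**
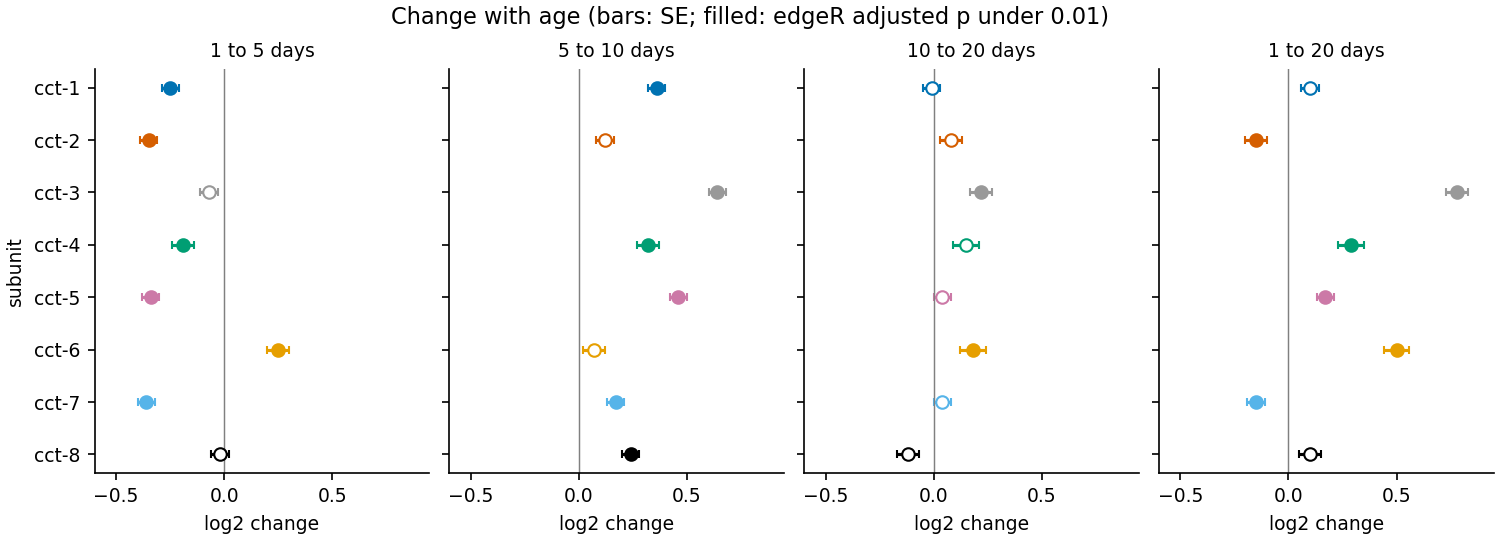
Log2 change of each CCT subunit gene (horizontal axes) between the ages named above each panel, from the edgeR fit to all 11 libraries, with cct-3 included; bars are standard errors and filled points have an adjusted p under 0.01. From 1 to 5 days cct-6 alone lies to the right of 0, at 0.25, while from 5 to 10 days all points do.

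From the first to the last age, 3 members rose and 2 fell. cct-6 rose by 0.50 (SE 0.06, edgeR adjusted p = 1.1e-07), from a mean of 282.7 to 400.9 CPM, cct-4 by 0.29 (SE 0.06, adjusted p = 1.1e-04) and cct-5 by 0.17 (SE 0.04, adjusted p = 0.00192). cct-2 and cct-7 had log2 changes of -0.15 each (SE 0.05 and 0.04, edgeR adjusted p = 0.00543 and 0.00369), but with scaling to library size alone both were at 0.00 in size (edgeR adjusted p = 0.938 and 0.975). That scaling moved the median of all genes by 0.15, to 0.14. cct-1 and cct-8 were at 0.10 each (SE 0.04 and 0.05, edgeR adjusted p = 0.0417 and 0.0671), and with library size alone at 0.25 each and called higher (edgeR adjusted p = 8.8e-06 and 4.9e-05). The members' median of 0.10 stood beside a median of -0.01 over all genes, of which 38.5% were called higher and 38% lower. Of the 2 falls, 0 were called without 1-day replicate 2 or 20-day replicate 1, and 1, that of cct-7, without 1-day replicate 3 or 20-day replicate 2, and the rise of cct-5 was not called without 20-day replicate 1 or 20-day replicate 2 (edgeR adjusted p = 0.0112 and 0.0218), nor with at least 100 counts required in every library (0.12, edgeR adjusted p = 0.0197).

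A comparison that does not depend on how libraries are scaled is the share of each subunit in the summed counts of the 7 members of its own library. Because a gene's length is the same in every library, a change of this share is a change relative to the other subunits, although shares are not comparable between genes. If all subunits kept one profile, all shares would be flat over the ages. For each subunit an exact permutation test over all divisions of the 11 libraries into the 4 ages asked whether its share varied between ages more than within them. The smallest p it can give is 6.5e-05, and 7 subunits were tested, with raw p given. The shares of a library are parts of one sum, so a rise of one lowers others, and the 7 tests are not independent.

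cct-6 had the largest change in share. It held 10.03%, 10.74% and 10.82% in the 1-day libraries, 14.39%, 14.71% and 14.21% at 5 days, 12.51%, 12.62% and 12.56% at 10 days, and 13.74% and 13.68% at 20 days (exact permutation p = 6.5e-05). The share thus rose by 3.18 percentage points from 1 to 20 days, and no 2 ages overlapped. cct-2 and cct-7 moved the other way. The share of cct-2 was 14.3% ± 0.29 (SD, n = 3) at 1 day, 12.9% ± 0.15 at 5 days, 11.6% ± 0.17 at 10 days and 11.8% ± 0.01 (n = 2) at 20 days (exact permutation p = 1.3e-04). That of cct-7 was 14.5% ± 0.54, 13.1% ± 0.63, 12.2% ± 0.25 and 12% ± 0.33 at the same ages (exact permutation p = 0.0026), and its libraries of 5, 10 and 20 days overlapped from one age to the next.

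The other subunits kept closer to their starting share, but each varied with age beyond the spread of its replicates. cct-5 had 20.4% ± 0.34 at 1 day, dipped to 18.6% ± 0.16 at 5 days, and then stood at 21.2% ± 0.14 and 21% ± 0.05 (exact permutation p = 7.8e-04). cct-8 had 8.9% ± 0.11, 10.1% ± 0.23, 9.9% ± 0.06 and 8.7% ± 0.12 (exact permutation p = 8.4e-04), so that its libraries of 1 and 20 days overlapped and those of the ages between lay higher. cct-1 stayed between 16.15% and 16.86% in the 5-day libraries and between 17.48% and 17.60% in the 10-day libraries, its lowest and highest ages (exact permutation p = 0.00221). cct-4 went from 14.3% ± 0.46 at 1 day to 16% ± 0.20 at 20 days (exact permutation p = 0.00468). When cct-3 was counted in the sum, the tests of cct-1 and cct-4 gave exact permutation p = 0.0175 and 0.0296, and the change of cct-5 from 1 to 20 days turned from 0.57 to -0.16 percentage points. Leaving out single libraries raised the p of cct-1, cct-4 or cct-7 to 0.01 or above: for cct-1 any of the 10-day and 20-day libraries, for cct-4 these and 5-day replicate 2, and for cct-7 1-day replicate 1 or 20-day replicate 1, with exact permutation p up to 0.0307.

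**Figure D3:**
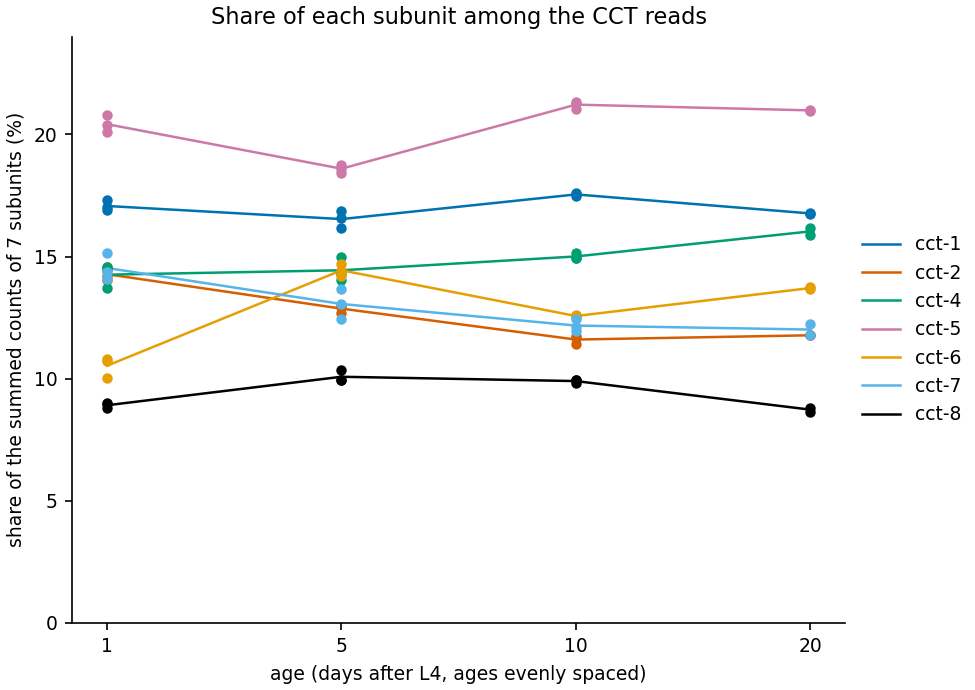
Share of each subunit in the summed counts of the 7 members of its library (vertical axis, percent) against age in days after L4 (horizontal axis, ages evenly spaced). Points are libraries and lines join the means. The line of cct-6 climbs from 10.5% to 14.4% between 1 and 5 days, while those of cct-2 and cct-7 run side by side from 14.3% and 14.5% at 1 day to 11.8% and 12% at 20 days.

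Count ratios of single pairs need no common denominator; these pairs were picked after their values were seen and are a description. cct-6 had 0.66 to 0.76 counts for each count of cct-7 at 1 day, 1.04 to 1.16 at 5 days, 1.01 to 1.05 at 10 days and 1.12 to 1.17 at 20 days. cct-2 to cct-7 hardly moved, with 0.93 to 1.02, 0.94 to 1.04, 0.92 to 0.98 and 0.96 to 1.00 at these ages. The ratio of cct-1 to cct-5 was 0.83 to 0.84 at 1 day, 0.86 to 0.91 at 5 days, 0.82 to 0.84 at 10 days and 0.80 in both libraries of 20 days.

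Profiles over the 11 libraries were compared by Pearson's r of log2 CPM, as a description: the points share ages and libraries. The 21 pairs of members ran from -0.41 for cct-6 with cct-7 to 0.99 for cct-1 with cct-5, with a median of 0.57. Only 2 pairs were below 0, both with cct-6, the other being cct-2 with cct-6 at -0.36. With library size alone these were close to 0, at -0.07 for cct-6 with cct-7 and -0.04 for cct-2 with cct-6, and the median was 0.70. High pairs were also cct-4 with cct-5 at 0.93, cct-2 with cct-7 at 0.92 and cct-1 with cct-4 at 0.90. Against the mean profile of the 7, r was 0.98 for cct-5, 0.97 for cct-1 and cct-4, 0.74 for cct-8, 0.59 for cct-7, 0.57 for cct-2 and 0.43 for cct-6, each of which is itself a part of that mean.

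**Figure D4:**
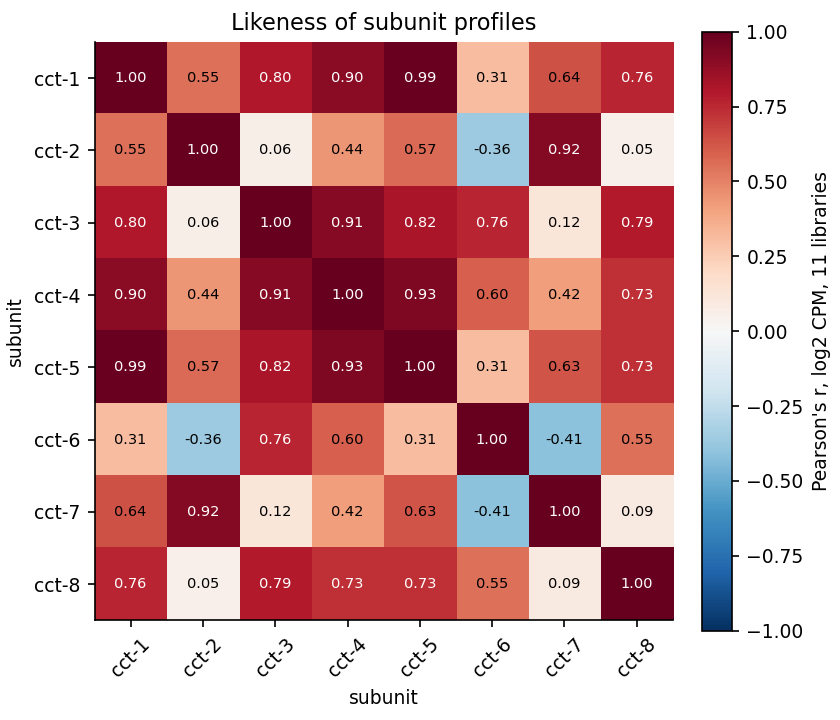
Pearson's r between the profiles of every pair of CCT subunit genes (rows and columns, cct-3 included) over the 11 libraries, from log2 CPM after TMM scaling; red is positive and blue negative. cct-1, cct-4 and cct-5 are alike, from 0.90 to 0.99, as are cct-2 with cct-7 (0.92) and cct-3 with cct-4 (0.91), and cct-6 is negative with cct-2 and cct-7, at -0.36 and -0.41 (-0.04 and -0.07 with library size alone).

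Among 8050 genes with at least 100 counts in every library, the 5 whose profiles were most like the mean CCT profile, members left out, were lap-1 (r = 0.965), which encodes a leucine aminopeptidase, fars-3 (0.963) and rars-1 (0.950), which encode aminoacyl-tRNA synthetases, K04B12.2 (0.945) and dhs-27 (0.945), of the short-chain dehydrogenase family. The mean level of each was lower at 5 days than at 1 day and higher again at 10 days, which follows from picking them for likeness to that profile. lap-1, for example, had log2 changes of -0.29 and 0.57 over these intervals and mean levels of 152, 128, 192 and 209 CPM at the 4 ages, without TMM scaling.

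Monotony with age was measured as the mean Spearman's rho between level and age over the 54 choices of 1 library per age, on CPM without TMM scaling, with 0.75 as the limit for rising and -0.75 for falling. cct-6 reached 0.98, cct-4 0.82, cct-1 and cct-5 0.80 each, and cct-8 0.78, so 5 of 7 members counted as rising, against 27.1% of all genes tested. Of the 7, 0 counted as falling, against 18.4% of all genes, with cct-7 at 0.10 and cct-2 at 0.00. On TMM-scaled CPM 3 members remained above the limit, since cct-1 and cct-8 came to 0.67 each. cct-6 was the one member above 0.9 on either scale. The shares of all genes above hold for CPM without TMM scaling at 0.75. They cannot be set against the counts on TMM-scaled CPM or at 0.9. Counting as rising did not mean a rise at every step: cct-1, cct-4 and cct-5 were called lower from 1 to 5 days.

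Levels can be set side by side only per length, for which counts were divided by the summed exon length in WBcel235 to give RPKM (CPM per kilobase). At 1 day cct-5 was highest, with 273.5 ± 6.65 RPKM (SD, n = 3), followed by cct-1 at 236.4 ± 5.57, cct-4 at 199.1 ± 13, cct-2 at 191.8 ± 8.62, cct-7 at 166.3 ± 1.00, cct-6 at 142.6 ± 10.1 and cct-8 at 97.76 ± 2.97. The neighbours cct-4 and cct-2 overlapped and the others did not. At 5, 10 and 20 days the order was cct-5, cct-1, cct-4, cct-6, cct-2, cct-7 and cct-8, with cct-4 and cct-6 overlapping at 5 days, so cct-6 had passed cct-2 and cct-7. By 20 days cct-5 stood at 340.3 ± 0.96 RPKM (n = 2), cct-6 at 224.5 ± 0.51 and cct-8 at 115.9 ± 1.45. These RPKM are without TMM scaling, and differences between ages are smaller with it. The scaled means at 1 and 20 days were 283.4 and 317.8 RPKM for cct-5, 147.8 and 209.7 for cct-6, and 101.3 and 108.2 for cct-8.

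The highest member was 2.80 times the lowest at 1 day, 2.25 times at 5 days, 2.62 times at 10 days and 2.94 times at 20 days in RPKM. This depends on the length used. With coding length, which is 1587 to 1647 bases in all 7, the ratio was 2.32 at 1 day and 2.43 at 20 days, and cct-2 and cct-7 overlapped at every age. cct-5 and cct-1 were the 2 highest and cct-8 was the lowest at each age with either length.

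cct-3, which encodes the gamma subunit between alpha and zeta in the ring, had a larger change from 1 to 20 days than any of the 7. It was measured at 171.2, 185.1 and 180.7 CPM at 1 day, 180.0, 172.5 and 157.9 CPM at 5 days, 269.0, 270.4 and 258.2 CPM at 10 days, with 308.5 and 308.7 CPM in the 20-day pair. The libraries of 1 and 5 days overlapped, those of 10 days lay above them, and those of 20 days were the highest. Its log2 changes were -0.07 (SE 0.04, edgeR adjusted p = 0.133), 0.64 (SE 0.04, edgeR adjusted p = 3.9e-10) and 0.22 (SE 0.05, edgeR adjusted p = 5.9e-04) over the 3 intervals, and 0.78 from 1 to 20 days (SE 0.05, edgeR adjusted p = 1.3e-11). The first of these was -0.21 and called lower with at least 100 counts required in every library (edgeR adjusted p = 3.5e-04). Its share of the counts of all 8 subunits went from 6.3% ± 0.08 to 6.8% ± 0.24, 8.6% ± 0.03 and 9.5% ± 0.06 (exact permutation p = 6.5e-05). Per exon length it was the lowest of the 8 up to 10 days, at 66.41 ± 1.32 RPKM at 1 day, and above cct-8 at 20 days, at 127.0 ± 0.80 RPKM. With TMM scaling these means were 68.79 and 118.6 RPKM.

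Prefoldin, the hexamer that carries unfolded actin and tubulin to CCT, went another way than the members that rose. From 1 to 20 days all 6 of its genes fell, with a median log2 change of -0.66, beside 38% of all genes called lower. All 6 fell under each of the 3 scalings. pfd-2 and pfd-4, both beta-type subunits, had the largest falls, of -1.0 each (SE 0.05, edgeR adjusted p = 2.3e-13 and 2.4e-12). pfd-2 was at 66.3, 71.6 and 70.4 CPM at 1 day, 48.3, 49.0 and 50.4 CPM at 5 days, 44.3, 45.5 and 42.5 CPM at 10 days, with 35.2 and 34.5 CPM in the 20-day pair, so that no 2 ages overlapped. pfd-5, of the alpha type, changed by -0.70, pfd-3, also of the alpha type, by -0.63, pfd-6 by -0.62 and pfd-1 by -0.58, with SE of 0.04 to 0.05 and edgeR adjusted p of at most 4.4e-10. By interval, 6 of 6 fell from 1 to 5 days (median -0.38), 1 of 6, pfd-2, from 5 to 10 days (median -0.04) and 6 of 6 from 10 to 20 days (median -0.33). Over all genes 34.0%, 24.6% and 28.2% were called lower in these intervals. The summed counts of the 7 CCT members were 5.41 to 5.64 times those of the 6 prefoldin genes at 1 day, 6.0 to 6.60 times at 5 days, 7.64 to 7.75 times at 10 days and 9.97 to 10.15 times at 20 days, a ratio taken after both sets of values were seen.

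**Figure D5:**
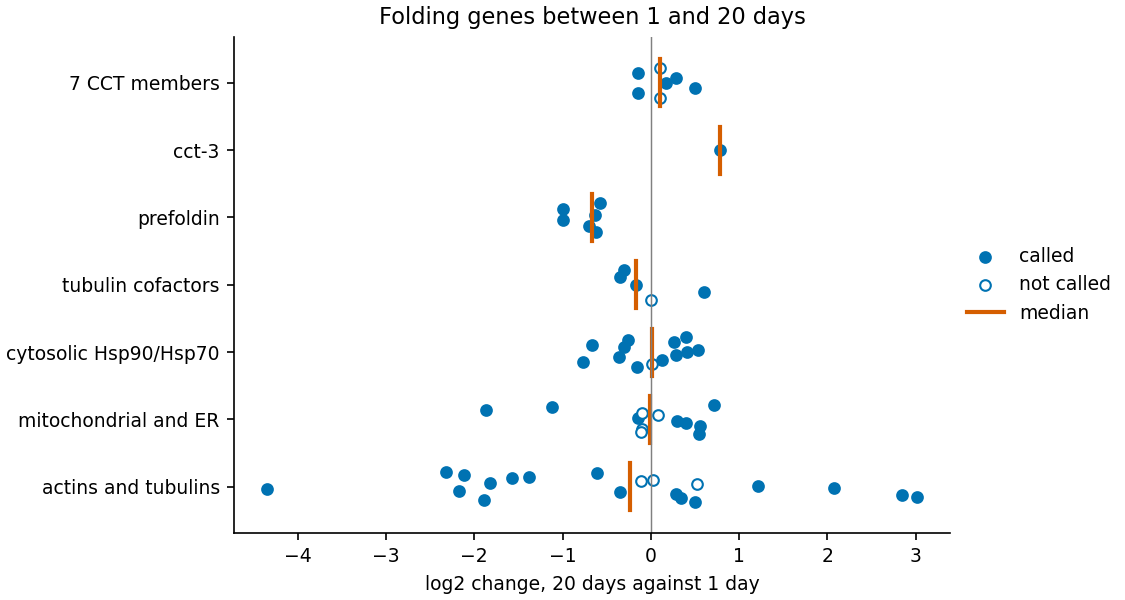
Log2 change from 1 to 20 days (horizontal axis) of single genes (points) in the CCT, prefoldin and other folding gene lists (vertical axis); filled points have an edgeR adjusted p under 0.01 and the bar is the median of the list. The 6 prefoldin genes lie between -1.0 and -0.58, the 7 CCT members between -0.15 and 0.50.

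The tubulin folding cofactors, which take tubulin over from CCT and join it into dimers, were mixed: 3 of 5 fell from 1 to 20 days and 1 rose, with a median of -0.17. Over all genes 38% were called lower and 38.5% higher. F16D3.4 (cofactor D) rose by 0.60, and F53F4.3 (cofactor B) changed by -0.35. With library size alone 1 of 5 fell and 2 rose. From 1 to 5 days, while 5 CCT members fell, 4 of the 5 cofactors rose (median 0.31), beside 34.5% of all genes called higher.

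Among the proteins that CCT folds, 20 of 21 actin and tubulin genes could be tested. From 1 to 20 days 10 fell and 7 rose, around a median of -0.23, beside 38% of all genes called lower and 38.5% called higher. The largest falls were those of tba-9 (-4.35), an alpha-tubulin, act-1 (-2.32), one of the muscle actins, and mec-12 (-2.17), the alpha-tubulin of touch receptor neurons, and the largest rises those of the tubulin genes tbb-6 (3.02), tbb-4 (2.85) and tba-8 (2.08). All 3 started from low counts: mean values at 1 and 20 days, which gene length also enters, were 8.42 and 75.9 CPM for tbb-6, 1.05 and 8.42 CPM for tbb-4, and 0.143 and 0.725 CPM for tba-8. The CPM of this list are without TMM scaling, unlike the log2 changes, so the CPM and the log2 change of a gene can differ in size or direction. Of the tubulin genes with high counts, tba-1 had a log2 change of 0.03 (966 and 1090 CPM, not called) and tba-2 of -0.11 (1520 and 1560 CPM, not called). That of tbb-2 was 0.28 (1850 and 2480 CPM, called higher) and that of tbb-1 -0.35 (830 and 723 CPM, called lower). With library size alone tba-1 was called higher (0.18, edgeR adjusted p = 3.4e-04), and the calls of tbb-2 and tbb-1 stayed. The actin genes are near-identical copies, so their single values depend on how shared reads were counted and are uncertain. The summed CPM of the list, which gene length also enters, was 7970 to 8270 at 1 day and 7310 to 7490 at 20 days.

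The other chaperone lists held calls in both directions. Of 13 cytosolic Hsp90 and Hsp70 genes with their co-chaperones 6 rose and 6 fell from 1 to 20 days (median 0.01), beside 38.5% and 38% of all genes. daf-21, the Hsp90 of the worm, rose by 0.40 (SE 0.06, edgeR adjusted p = 5.0e-06), and the phosphatase gene pph-5 by 0.53. hsp-1, the constitutive Hsp70, changed by -0.26 (edgeR adjusted p = 2.9e-04), which with library size alone was -0.11 and not called (edgeR adjusted p = 0.0453). bag-1, a nucleotide exchange factor of Hsp70, had the lowest value, -0.77. Of 12 mitochondrial and ER chaperone genes 5 rose and 3 fell (median -0.01). The mitochondrial chaperonin gene hsp-60, of the other chaperonin class, changed by -1.12 (edgeR adjusted p = 3.0e-14), and its lid partner Y22D7AL.10 by -1.87, whereas hsp-6, the mitochondrial Hsp70, rose by 0.72. Of 6 small heat shock genes tested 3 rose and 1 fell, from -2.16 for hsp-25 to 5.64 for hsp-16.41. The latter started from few counts, so the size of its change is uncertain. Its means without TMM scaling were 0.216 CPM at 1 day and 12.5 CPM at 20 days.

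Tissue markers, again in CPM without TMM scaling, also differed between the later ages. Over all genes 28.2% were called lower and 28.3% higher from 10 to 20 days, and 38% and 38.5% from 1 to 20 days. Germline and oocyte markers summed to between 18200 and 18300 CPM at 20 days, with 12 of 22 called lower than at 10 days, and mean levels at 1 and 20 days were 1030 and 881 CPM for gld-1, 216 and 520 CPM for glp-1, and 2420 and 3050 CPM for cpg-1. The 8 intestine markers summed to between 3320 and 3720 CPM at 10 days and between 524 and 550 CPM at 20 days. This fall in the sum was largely that of asp-1 (mean 1780 and 230 CPM) and cpr-1 (1570 and 45.8 CPM), and over the interval 5 of the 8 were called lower and 3 higher, among the latter elt-2, which encodes an intestinal transcription factor (6.26 and 10.1 CPM). Body wall muscle markers summed to between 694 and 741 CPM at 10 days and between 803 and 854 CPM at 20 days, with 5 of 8 tested called higher and 2 lower. Neuron markers summed to between 401 and 406 CPM at 10 days and between 497 and 498 CPM at 20 days. From 1 to 20 days 4 of these 9 were called higher and 3 lower, with a median log2 change of 0.09, and snb-1 was at 133 and 262 CPM against 12.4 and 10.2 CPM for unc-119. Hypodermis markers, largely cuticle collagens, summed to between 9360 and 10100 CPM at 1 day, between 1040 and 1260 CPM at 5 days, between 99.2 and 107 CPM at 10 days and between 89.1 and 91.7 CPM at 20 days. From 1 to 20 days 6 of these 7 were called lower and 1 higher, elt-1, at 7.82 and 19 CPM. Sperm markers had low sums, between 22.2 and 24.1 CPM at 1 day, 7.84 and 8.27 CPM at 10 days, and 14.7 and 17.7 CPM at 20 days, and from 10 to 20 days 5 of 8 tested were called higher. Genes of all 6 tissue lists had counts at every age, as whole worms give, and the part of tissue composition in the CCT profiles was not tested.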

How the data were processed

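Per the study's methods and the labels, the authors mapped single-end reads of poly(A) libraries from whole worms with TopHat 1.4.1 against the WS220 genome and assigned them to genes by htseq-count in union mode, which leaves out reads that touch more than one gene. The strand setting and the HTSeq version are not given in the sources used here. The deposited values are these raw counts of 11 libraries, with no normalization. Sample titles gave age and replicate, and each column was matched to its title by a library code. Nothing says whether the replicates came from separate cultures, so p-values measure the spread between these libraries, which may be technical.

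Ages were compared with the quasi-likelihood test of edgeR 4.0.16 (R 4.3.3, limma 3.58.1) on genes whose counts over all libraries reached 100, with TMM factors of 0.9464 to 1.0759, all 4 ages in one fit, and Benjamini-Hochberg adjustment over all 14773 genes, called at 0.01; the common coefficient of biological variation was 4.14%. The procedure was also run on simulated counts in which a small set of genes changed between 1 and 20 days, in both directions. Such counts do not probe how TMM scaling behaves where many genes change, as they do here. Scaled CPM divide each count by the library total times its factor. Levels of the CCT and prefoldin genes are given as scaled CPM. Levels of all other genes, sums of the other lists and RPKM are without these factors unless stated. RPKM were computed from lengths in WBcel235, which 98.6% of the tested genes have, whereas the counts rest on WS220, so no coordinates are given. No member sequences were read. Shares, monotony, correlations and permutation tests used Python 3.11.15 with numpy 2.4.6, pandas 2.3.3 and scipy 1.17.1. Intervals and spreads given as counting error cover that error only.

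The members and gene lists were chosen with earlier results of these data known. All 7 members, cct-3 and the prefoldin genes are named. Of the other lists at most the 3 highest and 3 lowest called changes from 1 to 20 days are named, with daf-21, hsp-1 and hsp-60. The 5 genes most like the mean CCT profile and 7 defining tissue markers are also named. The genes hlh-1, snb-1, asp-1, cpr-1, elt-1, tba-1, tba-2, tbb-1 and tbb-2 were added after their values were seen. Alternatives were library size alone, DESeq2 1.42.0 and its size factors, other filters, other fits, other denominators and lengths, and each library left out.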

Additional observations from a re-analysis of the deposited data

How the results depend on the processing

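Counts of members called depended on the scaling. With library size alone, which shifted the median of all genes by 0.15 from 1 to 20 days and by 0.10 from 10 to 20 days, 0 members were lower and 5 higher from 1 to 20 days and 5 were higher from 10 to 20 days; cct-7 then changed by 0.00 from 1 to 20 days. From 10 to 20 days 1 member was lower with DESeq2 size factors, with DESeq2, without a filter and in the fit to these 2 ages alone, and 0 members were higher with DESeq2 or its size factors, against 2 without a filter, with at least 100 counts in every library or in the fit to 2 ages. That stricter filter left 0 members higher from 1 to 5 days. It fits 8050 genes besides the members, and over all its genes 3395 were lower and 3364 higher from 1 to 20 days. From 1 to 5 days the numbers were 2964 and 3093, and from 10 to 20 days 2450 and 2405. The main fit gave 5611 and 5689, 5019 and 5093, and 4173 and 4176 over these intervals.

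Leaving out each library in turn gave 0 to 2 members lower and 2 to 3 higher from 1 to 20 days, 4 to 5 lower and 1 higher from 1 to 5 days, 4 to 6 higher from 5 to 10 days and 0 to 2 higher from 10 to 20 days. The change in share from 1 to 20 days then ran from -0.4 to -0.19 percentage points for cct-1, -2.63 to -2.35 for cct-2, 1.51 to 1.94 for cct-4, 0.4 to 0.74 for cct-5, 2.93 to 3.32 for cct-6, -2.76 to -2.22 for cct-7 and -0.26 to -0.1 for cct-8, and 4 to 5 members counted as rising. Where 1 library remained at 20 days it was assumed to vary like the other ages. With cct-3 in the sum the change was -0.84 for cct-1, 1.14 for cct-4 and -0.16 for cct-5. Members rising numbered 3 on TMM-scaled CPM and 1 at a limit of 0.9. No share of all genes rising is given for these settings or with libraries left out. The median r was 0.70 with library size alone, and the ratio of the highest to the lowest member was 2.32 at 1 day and 2.43 at 20 days with coding length. Of 5 tubulin cofactors, library size alone left 1 lower and 2 higher, and 5 small heat shock genes were higher. The cause of these differences was not tested beyond the genes or libraries left out.

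Same-numbered libraries of different ages did not deviate together (r of their deviations -0.114 to 0.042 in 15 pairs, and 1 of 11 libraries correlated best with its own number). These r also take in genes with few counts and cannot exclude a pairing, and the labels do not say whether a number marks a shared batch. With the replicate number as a block, 0 of 28 calls of members changed (2 members lower and 3 higher from 1 to 20 days). Depth gave a counting error of at most 1.37% per member and library, and the spread at 20 days rests on 2 libraries.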
